A study of Mus musculus with 29 samples.

Results

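Csf2rb2, Csf2rb, Il1r1, Tnfrsf1a, Tnfrsf12a, Il4ra, Il13ra1 and Ifngr1 are 8 mouse genes for receptor chains of inflammatory, type 2 and interferon cytokines. They were taken by their symbols from a table of 20411 genes measured in 29 hearts, and all 8 were among the 12928 genes with enough counts to be tested. The genes were chosen by results from the same hearts, seen when the list was drawn up, although the rule itself names symbols and no measured value. Every log2 change and adjusted p given for these 8 genes is therefore a description of these libraries and no independent evidence. Csf2rb2 passed the filter on low counts mainly through the tumour-bearing mice: it reached the filter level of 1.54 CPM (counts scaled to library size) in 20 of 20 tumour-bearing hearts and in 4 of 9 tumour-free hearts. Csf2rb reached that level in 20 of 20 and 8 of 9 hearts, and the other 6 genes reached it in all 29.

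All mice were wildtype BALB/c animals, and all received an adeno-associated virus through a vein. Its Tbg promoter is specific to hepatocytes, so the vector's product was directed to the liver and not to the heart that was sequenced. Mice in the C26_REVERBa group (10 hearts) carried the vector for REV-ERBα, a clock component and transcriptional repressor of the nuclear receptor family, and C26 colon tumour cells were placed under the skin 10 days after the vector. Mice in the C26_GFP group (10 hearts) had the same tumour cells and a vector for green fluorescent protein (GFP). Mice in the PBS_REVERBa group (5 hearts) and the PBS_GFP group (4 hearts) had the REV-ERBα and the GFP vector and were injected with saline (PBS) in place of tumour cells. C26 is a transplantable colon carcinoma line used to model cancer cachexia. The sources used here do not give age, sex or time of day.

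Cytokine receptors are assembled from a chain that binds the ligand and a partner that completes the signalling complex. Interleukin-3 (IL-3), interleukin-5 and GM-CSF each bind an alpha chain of their own and signal through a common beta chain by JAK2 and STAT5, chiefly in myeloid cells. The mouse carries a pair of beta chain genes: Csf2rb encodes the chain shared by all of these ligands, and Csf2rb2 a chain that serves IL-3 alone. Il1r1 encodes the signalling receptor of interleukin-1, which acts through MyD88, and Tnfrsf1a encodes TNF receptor 1, which is found on most cells. Tnfrsf12a encodes Fn14, the receptor of the cytokine TWEAK (Tnfsf12). Il4ra encodes the chain that binds interleukin-4, Il13ra1 the chain that joins it in the receptor for interleukin-4 and interleukin-13, and Ifngr1 the chain that binds interferon gamma. In heart tissue these receptors can lie on cardiomyocytes, fibroblasts, vessels and resident or recruited immune cells. In a bulk sample, more cells of a type and more RNA per cell cannot be told apart.

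The beta chain genes lie side by side on chromosome 15 on opposite strands. Csf2rb2 (NM_007781, chr15:78282508-78305721, minus strand, mm10) and Csf2rb (NM_007780, chr15:78325990-78351001, plus strand) were identical at 95.2% of 2631 aligned coding bases in the reference transcripts (GENCODE M21, GRCm38), and their longest identical run was 242 bases. Of all stretches of 50 bases, the nominal read length, 19.5% in the Csf2rb2 transcript and 19% in the Csf2rb transcript also occurred in another gene, and 892 were shared between the pair. The sources used here do not say how such reads were counted, so the split between the pair is uncertain. No such stretch was shared by the other 6 genes. A window of 60 coding bases in exon 4 of 14, at chr15:78294379-78294438 on the minus strand for Csf2rb2 and chr15:78338893-78338952 on the plus strand for Csf2rb, shows how reads from the pair can be told apart, with the 13 bases that differ in capitals.
Csf2rb2: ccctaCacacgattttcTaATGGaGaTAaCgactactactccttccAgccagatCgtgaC
Csf2rb: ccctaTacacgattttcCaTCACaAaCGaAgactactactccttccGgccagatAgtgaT

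Of the 8 genes, 7 had a promoter window in the RefSeq set (GRCm38.p6), 250 bases before to 50 bases after a transcript start, and Csf2rb had no entry. Il1r1 had a pair of starts, which made 8 windows. The windows of Csf2rb2 and Tnfrsf1a are shown because they hold the STAT motif TTCNNNGAA, which reads the same on both strands and is the site type bound by STAT5, the factor downstream of the beta chains. The match is in capitals. It starts 15 bases before the Csf2rb2 start (chr15:78305672-78305971, minus strand) and 244 bases before the Tnfrsf1a start (chr6:125349473-125349772, plus strand).
Csf2rb2 promoter: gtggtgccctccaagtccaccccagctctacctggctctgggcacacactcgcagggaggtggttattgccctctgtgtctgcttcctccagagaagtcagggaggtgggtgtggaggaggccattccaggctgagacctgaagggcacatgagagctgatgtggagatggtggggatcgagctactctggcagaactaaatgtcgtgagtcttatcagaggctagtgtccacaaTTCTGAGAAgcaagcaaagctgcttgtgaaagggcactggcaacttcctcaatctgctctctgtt
Tnfrsf1a promoter: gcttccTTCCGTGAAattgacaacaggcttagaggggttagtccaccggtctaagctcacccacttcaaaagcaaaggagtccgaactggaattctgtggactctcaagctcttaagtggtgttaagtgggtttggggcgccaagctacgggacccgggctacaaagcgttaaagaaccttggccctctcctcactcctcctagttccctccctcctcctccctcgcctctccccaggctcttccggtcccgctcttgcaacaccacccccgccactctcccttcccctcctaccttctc
Of 32851 promoter windows, 8.3% held this motif. On both strands, the PU.1 core GAGGAA was found in the Csf2rb2 window alone among the 8 (28.3% of all windows), and an NF-kB motif in Il4ra and in the second Il1r1 window (4.51% of all). The C/EBP motif TTGCNNCAA, the AP-1 motif TGANTCA and the REV-ERB core site AGGTCA were in none of the 8, against 2.08%, 7.81% and 16.3% of all windows. A match or its absence describes these letters only.

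The libraries held between 3207497 and 16853646 counts, and 5 exceeded 10000000: 3 from C26_GFP and 2 from PBS_GFP. Atrial markers were above a mean of 5 log2 CPM in 6 libraries, 2 from C26_REVERBa, 2 from C26_GFP, 1 from PBS_REVERBa and 1 from PBS_GFP. All 8 cardiomyocyte markers were detected, with summed levels between 40168 and 61776 CPM per heart. Nr1d1, the mouse gene of REV-ERBα, differed by 0.28 ± 0.16 (log2, edgeR adjusted p = 0.288) between C26_REVERBa and C26_GFP hearts and by 0.03 ± 0.24 (edgeR adjusted p = 1) between PBS_REVERBa and PBS_GFP hearts. With a hepatocyte promoter, heart counts do not check which vector a mouse received.

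In hearts of tumour-bearing mice, 5 of the 8 receptor genes were higher with either vector: Csf2rb2, Csf2rb, Il1r1, Tnfrsf1a and Il4ra. In C26_GFP against PBS_GFP hearts all 5 passed at an edgeR adjusted p under 0.05, none was lower, where 28.2% of all tested genes passed and 14.2% of all tested genes were higher. The median log2 change of the 8 genes was 0.95, against 0 over all tested genes. In C26_REVERBa against PBS_REVERBa hearts the same 5 genes were higher and none lower, where 7.23% of all tested genes passed and 4.05% were higher, and the median log2 change of the 8 was 0.75. Within the tumour-bearing mice, Il4ra and Tnfrsf12a were lower with the REV-ERBα vector, where 7.20% of all tested genes passed and 3.45% were lower. The comparisons share groups of hearts, so their values are set side by side and are not independent of each other.

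Between tumour-bearing and tumour-free hearts of the same vector, the beta chain genes had the largest log2 changes of the 8 genes, and they had the lowest levels per kb. Csf2rb2 averaged 7.02 ± 2.61 CPM in C26_REVERBa hearts (SD, n = 10), 9.79 ± 2.71 CPM in C26_GFP hearts (n = 10), 1.14 ± 0.549 CPM in PBS_REVERBa hearts (n = 5) and 2.14 ± 0.901 CPM in PBS_GFP hearts (n = 4). Its lowest, median and highest values were 3.07, 6.89 and 11.1 CPM in C26_REVERBa hearts and 7.29, 9.58 and 16.4 CPM in C26_GFP hearts. The tumour-free values, in replicate order, were 0.307, 0.869, 1.62, 1.53 and 1.36 CPM in PBS_REVERBa hearts and 1.11, 3.12, 1.72 and 2.62 CPM in PBS_GFP hearts. Every C26_GFP heart lay above every PBS_GFP heart and every C26_REVERBa heart above every PBS_REVERBa heart. The lowest C26_REVERBa heart, replicate 7, lay just under the highest PBS_GFP heart. The tumour-free values rest on few reads: 1 to 33 counts per heart, with 1 count in PBS_REVERBa replicate 1.

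The log2 change of Csf2rb2 was 2.22 ± 0.32 (SE) in C26_GFP against PBS_GFP hearts (edgeR adjusted p = 1.3e-05), a 4.66-fold difference. It was 2.51 ± 0.36 in C26_REVERBa against PBS_REVERBa hearts (edgeR adjusted p = 5e-05). Across the 29 hearts its level was 1.34 CPM per kb of counted transcript, the lowest of the 8 genes. The highest heart of all was C26_GFP replicate 9, which also had the highest atrial marker level. Without the 6 libraries with high atrial markers the C26_GFP change was 2.57 (edgeR adjusted p = 5.64e-05).

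Csf2rb, the beta chain shared by IL-3, IL-5 and GM-CSF, averaged 11.1 ± 3.73 CPM in C26_REVERBa hearts, 13.8 ± 4.35 CPM in C26_GFP hearts, 3.18 ± 0.96 CPM in PBS_REVERBa hearts and 3.18 ± 1.70 CPM in PBS_GFP hearts (SD, n = 10, 10, 5 and 4). Its lowest, median and highest values were 4.18, 11.4 and 16.9 CPM in C26_REVERBa hearts and 8.05, 12.8 and 22.1 CPM in C26_GFP hearts. The tumour-free values were 3.07, 3.19, 4.64, 3.07 and 1.94 CPM in PBS_REVERBa hearts and 2.43, 4.26, 4.88 and 1.16 CPM in PBS_GFP hearts. C26_GFP and PBS_GFP hearts did not overlap, while C26_REVERBa replicate 7 lay among the PBS_REVERBa hearts and the other 9 lay above them. The log2 change was 2.09 ± 0.32 in C26_GFP against PBS_GFP hearts (edgeR adjusted p = 2.57e-05) and 1.81 ± 0.32 in C26_REVERBa against PBS_REVERBa hearts (edgeR adjusted p = 0.000712). C26_REVERBa replicate 7 and C26_GFP replicate 9 were the lowest and the highest tumour-bearing hearts for both beta chain genes.

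**Figure D1:**
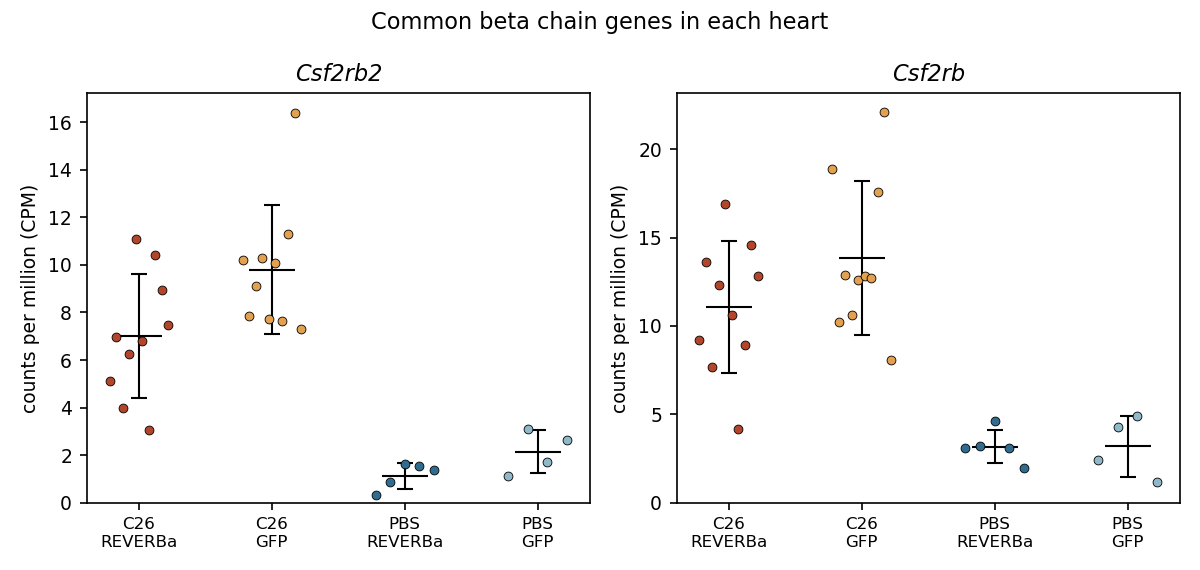
Csf2rb2 (left) and Csf2rb (right) in CPM for each heart (points) of the 4 groups, with the group mean and SD as lines. The C26_GFP hearts lie between 7.29 and 16.4 CPM for Csf2rb2, above all PBS_GFP hearts, whose highest is 3.12 CPM.

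Csf2rb2 took 38.8 ± 5.98% of the summed Csf2rb2 and Csf2rb counts in C26_REVERBa hearts, 41.8 ± 4.56% in C26_GFP hearts, 26.2 ± 12.2% in PBS_REVERBa hearts and 42.2 ± 19.2% in PBS_GFP hearts (SD, n = 10, 10, 5 and 4). The share stayed between 33.8% and 53.8% in the C26_REVERBa hearts and between 35% and 49.4% in the C26_GFP hearts. The tumour-free shares spread from 9.09% to 41.2% in PBS_REVERBa hearts and from 26.1% to 69.2% in PBS_GFP hearts. Those shares rest on few reads: PBS_REVERBa replicate 1 had 1 of 11 counts (exact Clopper-Pearson 95% interval 0.23% to 41.3%) and PBS_GFP replicate 4 had 9 of 13 (38.6% to 90.9%). The intervals cover counting error only. The summed level of the pair does not depend on how shared reads were split between them. It would change if such reads were dropped or counted for both genes, which is not known. The sum was 18.1 ± 5.92 CPM in C26_REVERBa hearts, 23.6 ± 6.76 CPM in C26_GFP hearts, 4.32 ± 1.21 CPM in PBS_REVERBa hearts and 5.32 ± 1.95 CPM in PBS_GFP hearts. The lowest tumour-bearing heart had 7.25 CPM of the pair and the highest tumour-free heart 7.38 CPM.

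**Figure D2:**
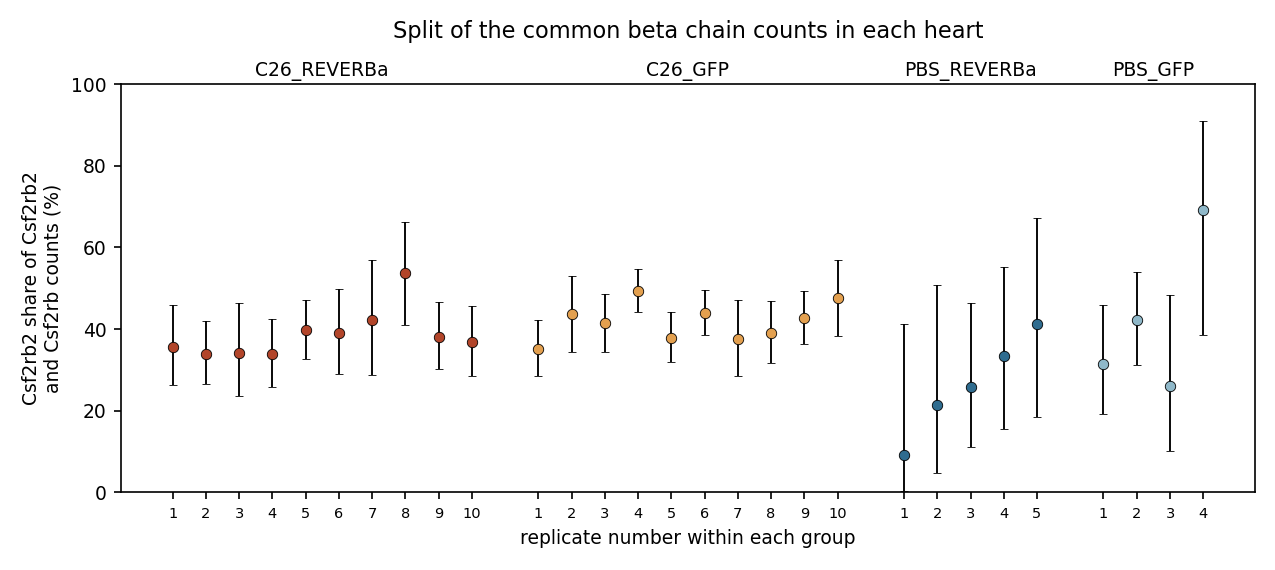
Csf2rb2 share of the summed Csf2rb2 and Csf2rb counts (percent, points) in each heart, by group and replicate number, with exact 95% binomial intervals as bars. The intervals are wide where counts are few, as in PBS_REVERBa replicate 1 with 11 counts, from 0.23% to 41.3%.

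Il1r1, the signalling receptor of interleukin-1 (NM_008362, chr1:40225080-40316177, plus strand, mm10), averaged 66.1 ± 12.5 CPM in C26_REVERBa hearts, 77.3 ± 7.67 CPM in C26_GFP hearts, 36.4 ± 3.95 CPM in PBS_REVERBa hearts and 37.4 ± 5.04 CPM in PBS_GFP hearts (SD, n = 10, 10, 5 and 4). Its lowest, median and highest values were 42.4, 69 and 84.9 CPM in C26_REVERBa hearts and 66.2, 75.6 and 91.4 CPM in C26_GFP hearts. The tumour-free values were 33.1, 40, 38.1, 31.2 and 39.5 CPM in PBS_REVERBa hearts and 33.3, 43.2, 40.2 and 33.1 CPM in PBS_GFP hearts. With either vector, the tumour-bearing and tumour-free hearts did not overlap. The log2 change was 1.04 ± 0.13 in C26_GFP against PBS_GFP hearts (edgeR adjusted p = 1.46e-06) and 0.86 ± 0.12 in C26_REVERBa against PBS_REVERBa hearts (edgeR adjusted p = 3.22e-05). Gm38070, an annotation of the class TEC whose coding status is unsettled, lies on the same strand within Il1r1, and Gm44876 lies antisense within Il4ra. Reads of an overlapping pair may have been counted together.

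Tnfrsf1a, TNF receptor 1 (NM_011609, chr6:125349723-125362483, plus strand, mm10), averaged 84.6 ± 9.65 CPM in C26_REVERBa hearts, 96.3 ± 8.07 CPM in C26_GFP hearts, 54.1 ± 4.64 CPM in PBS_REVERBa hearts and 53.3 ± 6.71 CPM in PBS_GFP hearts (SD, n = 10, 10, 5 and 4). Its lowest, median and highest values were 64.8, 84.2 and 95.9 CPM in C26_REVERBa hearts and 84.1, 97.1 and 110.2 CPM in C26_GFP hearts. The tumour-free values were 57.4, 55.9, 56.9, 54.2 and 46.1 CPM in PBS_REVERBa hearts and 45.2, 60.7, 50.8 and 56.4 CPM in PBS_GFP hearts. All tumour-bearing hearts lay above all tumour-free hearts. The change was the smallest of the 5 higher genes and had the smallest error: 0.85 ± 0.09 on the log2 scale in C26_GFP against PBS_GFP hearts (edgeR adjusted p = 1.9e-07) and 0.65 ± 0.09 in C26_REVERBa against PBS_REVERBa hearts (edgeR adjusted p = 1.69e-05). By p-value it ranked 14 and 15 of 12928 genes in these comparisons, the highest rank of the 8 genes in both.

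Tnfrsf12a, the TWEAK receptor Fn14 (NM_013749, chr17:23675445-23677449, minus strand, mm10), varied more within each group than it differed between tumour-bearing and tumour-free hearts. It averaged 48.3 ± 26.4 CPM in C26_REVERBa hearts, 89.9 ± 42.3 CPM in C26_GFP hearts, 69.1 ± 25 CPM in PBS_REVERBa hearts and 75.9 ± 21 CPM in PBS_GFP hearts (SD, n = 10, 10, 5 and 4). Its lowest, median and highest values were 15.1, 39.8 and 102.8 CPM in C26_REVERBa hearts and 33.8, 87.1 and 182.7 CPM in C26_GFP hearts. The tumour-free values were 62.9, 69.5, 33, 101.7 and 78.6 CPM in PBS_REVERBa hearts and 83.7, 78.6, 46.2 and 95.1 CPM in PBS_GFP hearts. The coefficient of variation was 54.7%, 47.1%, 36.2% and 27.6% in C26_REVERBa, C26_GFP, PBS_REVERBa and PBS_GFP hearts, against medians over all tested genes of 13.6%, 13.1%, 13.2% and 10.7%. C26_GFP replicate 10 was the highest heart and C26_REVERBa replicate 8 the lowest. The log2 change was 0.24 ± 0.36 in C26_GFP against PBS_GFP hearts (edgeR adjusted p = 0.674) and -0.51 ± 0.34 in C26_REVERBa against PBS_REVERBa hearts (edgeR adjusted p = 0.381). The 95% intervals, -0.48 to 0.95 and -1.18 to 0.16, leave room for a change in either direction.

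Il4ra, the chain that binds interleukin-4 (NM_001008700, chr7:125552282-125579474, plus strand, mm10), averaged 67.4 ± 18.1 CPM in C26_REVERBa hearts, 94 ± 23 CPM in C26_GFP hearts, 36.2 ± 2.91 CPM in PBS_REVERBa hearts and 38.4 ± 4.58 CPM in PBS_GFP hearts (SD, n = 10, 10, 5 and 4). Its lowest, median and highest values were 44.2, 70.6 and 101.3 CPM in C26_REVERBa hearts and 56.6, 91.3 and 130.9 CPM in C26_GFP hearts. The tumour-free values were 35, 33.9, 34.8, 36.2 and 41.2 CPM in PBS_REVERBa hearts and 38.7, 34.8, 35.3 and 44.8 CPM in PBS_GFP hearts. With either vector the tumour-bearing hearts lay above the tumour-free hearts without overlap, and they were more widely spread. The log2 change was 1.29 ± 0.20 in C26_GFP against PBS_GFP hearts (edgeR adjusted p = 2.57e-05) and 0.89 ± 0.19 in C26_REVERBa against PBS_REVERBa hearts (edgeR adjusted p = 0.00355).

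Il13ra1, the partner of Il4ra in the receptor for both type 2 cytokines (NM_133990, chrX:36112108-36171261, plus strand, mm10), averaged 82.1 ± 8.39 CPM in C26_REVERBa hearts, 74.2 ± 9.07 CPM in C26_GFP hearts, 78.8 ± 13.3 CPM in PBS_REVERBa hearts and 83.5 ± 6.82 CPM in PBS_GFP hearts. Its log2 change was -0.17 ± 0.10 in C26_GFP against PBS_GFP hearts (95% interval -0.36 to 0.03, edgeR adjusted p = 0.219) and 0.06 ± 0.09 in C26_REVERBa against PBS_REVERBa hearts (edgeR adjusted p = 0.754). Ifngr1, the chain that binds interferon gamma (NM_010511, chr10:19591958-19610225, plus strand, mm10), averaged 71.9 ± 4.82 CPM in C26_REVERBa hearts, 75.6 ± 8.29 CPM in C26_GFP hearts, 74.2 ± 7.99 CPM in PBS_REVERBa hearts and 76.3 ± 3.46 CPM in PBS_GFP hearts. Its log2 change was -0.02 ± 0.08 in C26_GFP against PBS_GFP hearts (95% interval -0.17 to 0.13, edgeR adjusted p = 0.898) and -0.04 ± 0.07 in C26_REVERBa against PBS_REVERBa hearts (edgeR adjusted p = 0.777). The 29 hearts ranged from 55.7 to 93.5 CPM for Il13ra1 and from 61.6 to 91.8 CPM for Ifngr1, and all groups overlapped.

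**Figure D3:**
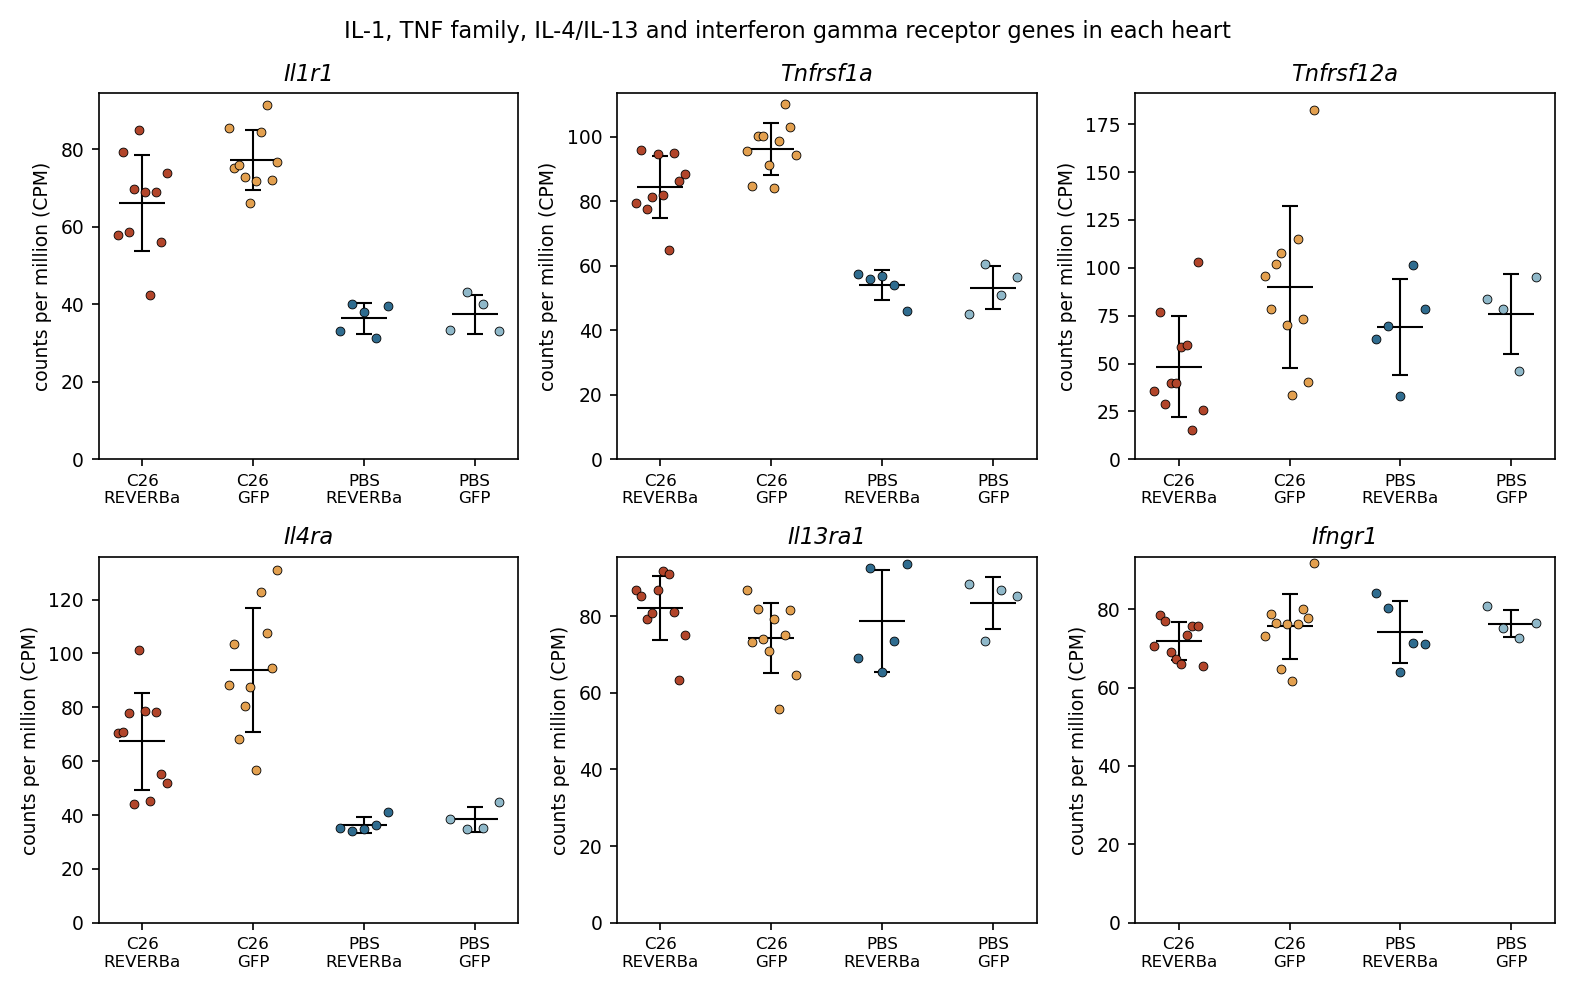
CPM of Il1r1, Tnfrsf1a, Tnfrsf12a, Il4ra, Il13ra1 and Ifngr1 in each heart (points) of the 4 groups, with the group mean and SD as lines. Tumour-bearing hearts lie above tumour-free hearts of the same vector for Il1r1, Tnfrsf1a and Il4ra, while Tnfrsf12a spreads from 15.1 to 182.7 CPM.

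Groups that did not overlap were seen for 5 of the 8 genes in C26_GFP against PBS_GFP hearts, where 5.65% of all tested genes had every C26_GFP heart above every PBS_GFP heart. They were seen for 4 of the 8 in C26_REVERBa against PBS_REVERBa hearts, where 1.10% of all tested genes were higher in that way. Per kb of counted transcript, the mean over the 29 hearts was 79.1 CPM for Tnfrsf12a, 36.7 CPM for Tnfrsf1a, 35.3 CPM for Ifngr1, 21.3 CPM for Il13ra1, 13.2 CPM for Il4ra, 12.8 CPM for Il1r1, 2.04 CPM for Csf2rb and 1.34 CPM for Csf2rb2. In this order Tnfrsf1a and Ifngr1 lay close to each other, as did Il4ra and Il1r1. These means pool groups that differ, and the order of both pairs depends on the group. Il4ra and Il1r1 stood at 13.2 and 14 CPM per kb in C26_REVERBa hearts, 18.5 and 16.3 in C26_GFP hearts and 7.54 and 7.9 in PBS_GFP hearts. In C26_GFP hearts Tnfrsf1a stood at 44.7 ± 3.74 CPM per kb and Ifngr1 at 36 ± 3.95 (SD, n = 10), while in PBS_GFP hearts Tnfrsf1a stood at 24.7 ± 3.12 and Ifngr1 at 36.3 ± 1.65 (SD, n = 4).

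Whether the REV-ERBα vector altered these receptors in tumour-bearing mice was read from C26_REVERBa against C26_GFP hearts. Il4ra was lower with a log2 change of -0.48 ± 0.14 (edgeR adjusted p = 0.0347) and Tnfrsf12a with -0.88 ± 0.28 (edgeR adjusted p = 0.048). Their groups overlapped: 4 of 10 C26_REVERBa hearts lay below the lowest C26_GFP heart for Il4ra and 3 of 10 for Tnfrsf12a. The other 6 genes did not pass. Csf2rb2 changed by -0.49 ± 0.19 (edgeR adjusted p = 0.112, 95% interval -0.88 to -0.11), a size like that of Il4ra with a larger error. Tnfrsf1a stood at -0.19 ± 0.06 (edgeR adjusted p = 0.0714), Il1r1 at -0.22 ± 0.09 (edgeR adjusted p = 0.117), Csf2rb at -0.30 ± 0.19 (edgeR adjusted p = 0.352), Ifngr1 at -0.07 ± 0.06 (edgeR adjusted p = 0.479) and Il13ra1 at 0.14 ± 0.08 (edgeR adjusted p = 0.239). The median log2 change of the 8 genes was -0.26, against 0 over all tested genes.

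Both calls sat close to the threshold. Of 14 alternative settings, 7 lost the Tnfrsf12a call and 3 the Il4ra call. The looser threshold of 0.1, counted among the 14, could not lose a call. Single hearts were left out in turn. The Tnfrsf12a call was lost without any of 16 of the 20 hearts, all but C26_REVERBa replicates 2 and 9 and C26_GFP replicates 6 and 9. The Il4ra call was lost without any of 8, C26_REVERBa replicates 1, 4, 7 and 10 and C26_GFP replicates 2, 7, 8 and 10. Adjusted p over the 20 left-out fits ran from 0.00968 to 0.128 for Tnfrsf12a and from 0.00686 to 0.084 for Il4ra (edgeR). Without C26_GFP replicate 10, the highest heart for both genes, the log2 change was -0.71 for Tnfrsf12a (edgeR adjusted p = 0.128) and -0.41 for Il4ra (edgeR adjusted p = 0.084). A fit of the C26_REVERBa and C26_GFP hearts alone called neither (edgeR adjusted p = 0.0813 for Tnfrsf12a and 0.0746 for Il4ra). DESeq2 called both (adjusted p = 0.0365 for Tnfrsf12a and 0.0149 for Il4ra), and limma voom with sample weights called both with Csf2rb2 and Tnfrsf1a in addition (adjusted p = 0.0386 and 0.0367).

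In tumour-free mice, none of the 8 genes differed between PBS_REVERBa and PBS_GFP hearts by edgeR at an adjusted p under 0.05, where 0% of all tested genes passed. At an unadjusted p under 0.05 none of the 8 and 530 of all tested genes differed, and DESeq2 called 0 and limma voom 1 of all tested genes. The largest value was that of Csf2rb2, -0.78 ± 0.47 on the log2 scale (edgeR adjusted p = 1, 95% interval -1.70 to 0.13), from 26 counts in 5 PBS_REVERBa hearts and 64 counts in 4 PBS_GFP hearts. The other 7 genes lay between -0.13 and 0.02. Whether the tumour difference itself depended on the vector was tested as an interaction, the C26_REVERBa minus PBS_REVERBa change less the C26_GFP minus PBS_GFP change. None of the 8 genes passed by edgeR, with 0% of all tested genes called. None of the 8 and 1357 of all tested genes had an unadjusted p under 0.05, and DESeq2 called 15 and limma voom 4 of all tested genes. The interaction was 0.29 ± 0.50 for Csf2rb2 (95% interval -0.70 to 1.27, edgeR adjusted p = 0.884), -0.41 ± 0.26 for Il4ra (-0.92 to 0.11, edgeR adjusted p = 0.584) and -0.75 ± 0.50 for Tnfrsf12a (-1.73 to 0.24, edgeR adjusted p = 0.604). The 95% intervals were narrower for Tnfrsf1a (-0.45 to 0.03), Il13ra1 (-0.04 to 0.49) and Ifngr1 (-0.23 to 0.18). A p that misses the threshold does not show that the tumour difference was the same with both vectors.

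**Figure D4:**
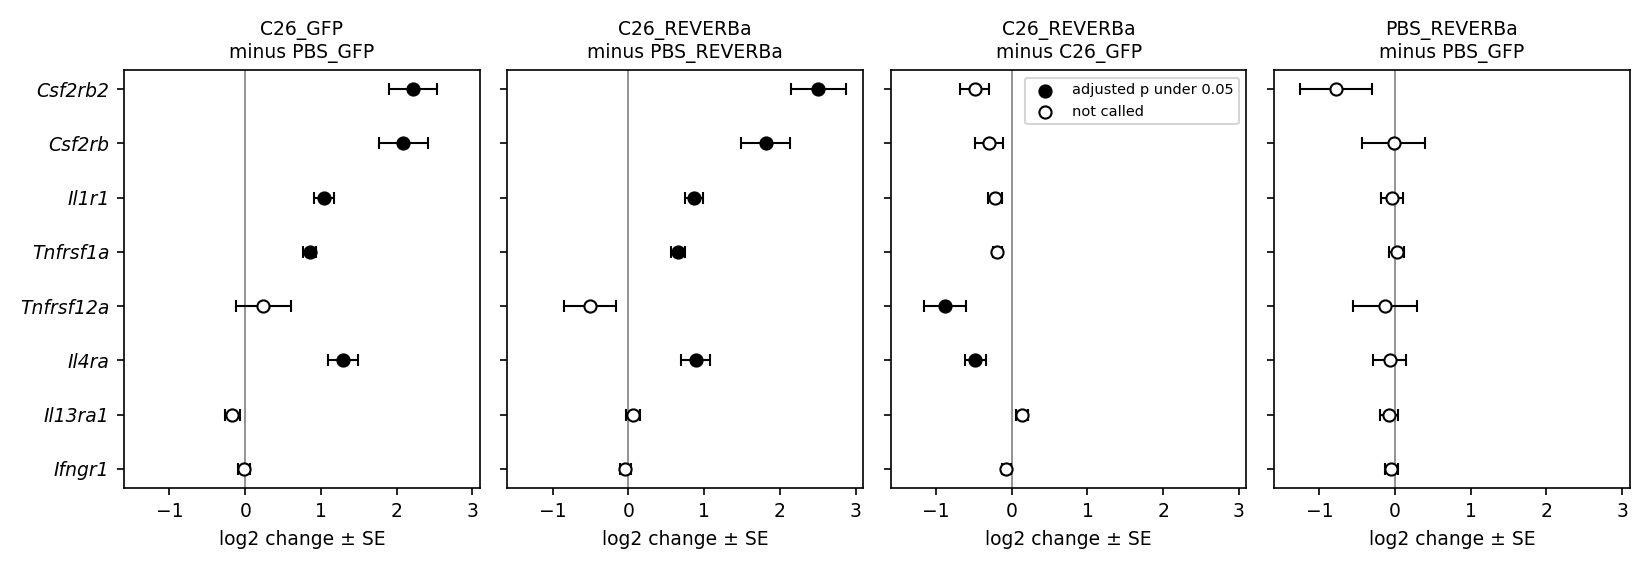
Log2 changes with their SE for the 8 genes in 4 comparisons between groups, with filled points at an edgeR adjusted p under 0.05. The same 5 genes are filled in both tumour comparisons, Tnfrsf12a and Il4ra in C26_REVERBa minus C26_GFP, and none in PBS_REVERBa minus PBS_GFP.

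Of the 12 ligand genes, 9 had too few counts to be tested and 3 were tested. The most abundant was Tnfsf12, with 4977 counts over the 29 libraries. Over all 29 libraries Il3 had 0 counts, Csf2 (GM-CSF) and Ifng 2 each, Il13 4 and Il4 5. A count of 0 allows up to 3 counts, or 0.935 CPM in the smallest and 0.178 CPM in the largest library. Il5, Il1a, Il1b and Lta totalled 44, 63, 137 and 121 counts. Il1rn, the antagonist that competes with interleukin-1 for Il1r1, reached the filter level of 1.54 CPM in C26_GFP hearts alone: its highest values were 0.904 CPM in C26_REVERBa, 2.6 CPM in C26_GFP, 0.194 CPM in PBS_REVERBa and 0.287 CPM in PBS_GFP hearts. A gene that passed in this way had to be higher in C26_GFP hearts, so its log2 changes are a description from few counts. Its fitted difference was 3.36 ± 0.69 on the log2 scale in C26_GFP against PBS_GFP hearts, with 140 counts in the 10 C26_GFP hearts and 4 counts in the 4 PBS_GFP hearts. In C26_REVERBa against C26_GFP hearts it was -1.84 ± 0.40, with 25 counts in the C26_REVERBa hearts and 140 in the C26_GFP hearts. Tnf, the ligand of Tnfrsf1a, did not reach 1.54 CPM in any C26_GFP heart, where its highest value was 1.16 CPM. Its highest values were 1.6 CPM in C26_REVERBa, 2.72 CPM in PBS_REVERBa and 1.94 CPM in PBS_GFP hearts. The fitted log2 change of Tnf was -1.19 ± 0.38 in C26_GFP against PBS_GFP hearts, with 63 counts in 10 and 50 counts in 4 hearts. Tnf thus passed the filter through other groups than C26_GFP, and this change too is a description from few counts. Tnfsf12, the ligand of Tnfrsf12a, changed by 0.12 ± 0.08 (edgeR adjusted p = 0.29) at 23.7 ± 1.74 CPM in C26_GFP hearts and 21.7 ± 2.33 CPM in PBS_GFP hearts. In C26_REVERBa against PBS_REVERBa hearts none of the 3 tested ligand genes passed, where 7.23% of all tested genes did, and Tnf stood at -1.07 ± 0.39 (edgeR adjusted p = 0.0947).

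Of 9 partner chains and decoy receptors, 6 were tested, and in C26_GFP against PBS_GFP hearts 1 was higher and 2 were lower, with a median log2 change of -0.18, where 28.2% of all tested genes passed and 14.2% were higher. Tnfrsf1b, TNF receptor 2, was higher by 0.73 ± 0.13 on the log2 scale (edgeR adjusted p = 0.000111). Ifngr2, the chain that completes the interferon gamma receptor with Ifngr1, was lower with a log2 change of -0.75 ± 0.13 (edgeR adjusted p = 9.09e-05), at 167.2 ± 33.2 CPM in C26_GFP hearts and 281.7 ± 18.5 CPM in PBS_GFP hearts. It was higher in C26_REVERBa than in C26_GFP hearts by 0.41 ± 0.10 on the log2 scale (edgeR adjusted p = 0.018). Ifngr2 was the one partner chain to pass in that comparison, where 7.20% of all tested genes passed. Il2rg, the gamma chain that pairs with Il4ra, was lower in C26_GFP than in PBS_GFP hearts, with a log2 change of -0.46 ± 0.15 (edgeR adjusted p = 0.0238). Csf2ra, the GM-CSF alpha chain, stood at 0.08 ± 0.12 (edgeR adjusted p = 0.648), at 14.2 ± 1.89 CPM in C26_GFP hearts and 13.1 ± 1.51 CPM in PBS_GFP hearts. In C26_REVERBa against PBS_REVERBa hearts Tnfrsf1b was higher by 0.49 ± 0.12 on the log2 scale and Il2rg lower with a log2 change of -0.54 ± 0.15 (edgeR adjusted p = 0.014 and 0.0238), while Ifngr2 stood at -0.33 ± 0.12 (edgeR adjusted p = 0.0926). Of all tested genes, 7.23% passed there. Il5ra, Il1r2 and Il13ra2 had 6, 17 and 1 counts over all libraries and were not tested.

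Of 21 genes for proximal signalling, all were tested. In C26_GFP against PBS_GFP hearts 5 were higher (Jak3, Myd88, Irak4, Ripk1 and Birc3) and 1 was lower, with a median log2 change of 0.07. These 6 of 21 are a share near the 28.2% of all tested genes that passed. Jak3, a kinase that docks on Il2rg, was higher by 0.78 ± 0.09 on the log2 scale (edgeR adjusted p = 7.09e-07), and the interleukin-1 receptor adaptor Myd88 and kinase Irak4 were higher by 0.55 ± 0.12 and 0.60 ± 0.14 (edgeR adjusted p = 0.000911 and 0.00235). Traf3, an adaptor of TNF receptor signalling, was lower with a log2 change of -0.60 ± 0.11 (edgeR adjusted p = 0.000205). Myd88 was the one gene of this list to pass in C26_REVERBa against C26_GFP hearts, at -0.29 ± 0.08 (edgeR adjusted p = 0.0361), where 7.20% of all tested genes passed. In C26_REVERBa against PBS_REVERBa hearts 3 were higher (Jak3, Myd88 and Irak4) and Traf3 was lower, with a median log2 change of 0.08, where 7.23% of all tested genes passed.

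Of 18 feedback and target genes 15 were tested, and in C26_GFP against PBS_GFP hearts 5 were higher (Icam1, Nfkbia, Ccl11, Pim1 and Bcl2l1) and 1, the interferon-inducible Gbp3, was lower, with a median log2 change of 0.16, where 28.2% of all tested genes passed and 14.2% were higher. The adhesion molecule Icam1 was higher by a log2 change of 0.94 ± 0.13 and the NF-kB inhibitor Nfkbia by 0.90 ± 0.20 (edgeR adjusted p = 1.1e-05 and 0.0015). The chemokine Ccl11 changed by 1.01 ± 0.26 and the STAT5 target Pim1 by 0.69 ± 0.18 (edgeR adjusted p = 0.00414 and 0.00448). Cish, a feedback inhibitor induced by STAT5, stood at -0.10 ± 0.23 (edgeR adjusted p = 0.788). In C26_REVERBa against C26_GFP hearts, Nfkbia and Icam1 were lower, with log2 changes of -0.54 ± 0.15 and -0.40 ± 0.09 (edgeR adjusted p = 0.0272 and 0.0143). They were 2 of 15, where 7.20% of all tested genes passed and 3.45% were lower. In C26_REVERBa against PBS_REVERBa hearts Ccl11 alone of the 15 passed, higher by 0.97 ± 0.27 on the log2 scale (edgeR adjusted p = 0.0259). This 1 of 15 is a share near the 7.23% of all tested genes that passed. Icam1 stood at 0.39 ± 0.13, Nfkbia at 0.44 ± 0.19 and Pim1 at 0.40 ± 0.17 (edgeR adjusted p = 0.0558, 0.162 and 0.147). The 4 lists were chosen with results of these hearts known. Most of their named genes were picked by a small p in these same comparisons. The counts, log2 changes and adjusted p given for the lists are therefore a description and no independent evidence.

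Genes whose profile over the 29 hearts lay closest to each receptor gene were ranked by the root mean square difference of centred log2 CPM, so that a small value means a like pattern in log2 units. Closest to Csf2rb2 were Cyp1b1 (0.53), Srpx (0.597), Csf2rb (0.599), Ifi205 (0.605) and Socs3 (0.623), where the median over 12798 compared genes was 1.225. Cyp1b1, a cytochrome P450 gene, averaged 32.9 ± 10.4 CPM in C26_REVERBa hearts, 55.7 ± 16.8 CPM in C26_GFP hearts, 10.2 ± 3.37 CPM in PBS_REVERBa hearts and 13.8 ± 3.94 CPM in PBS_GFP hearts. Closest to Csf2rb were the complement gene C3 (0.443) and Socs3 (0.497, median over all 1.043). Serping1, the C1 inhibitor of complement, was closest to both Il1r1 (0.184, median 0.539) and Tnfrsf1a (0.144, median 0.441). Next came Tnfrsf1a for Il1r1 (0.185) and the transporter Slco2b1 for Tnfrsf1a (0.146). Closest to Tnfrsf12a were the cardiomyocyte stress genes Ankrd1 (0.354) and Nppb (0.368, median 0.807). Fbxo31 (0.182) and Sema6b (0.186, median 0.652) were closest to Il4ra. For Il13ra1 they were Eif4e (0.106) and Plekha2 (0.112, median 0.281), and for Ifngr1 Prepl (0.105) and Rnf14 (0.109, median 0.252). A flat profile would score 0.181 for Il13ra1 and 0.125 for Ifngr1, so the genes named for Ifngr1 are little closer than a gene with no pattern. The profiles share libraries and the group differences, and the values are a description.

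**Figure D5:**
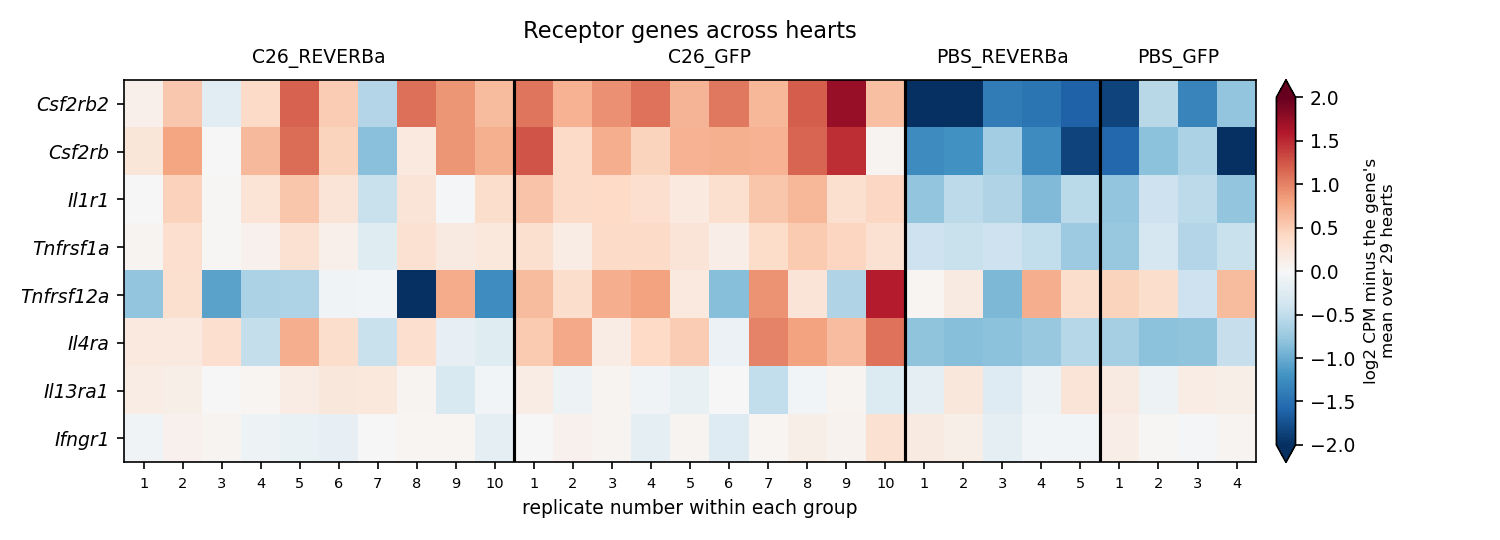
Log2 CPM of the 8 genes in each of the 29 hearts, centred on the mean of each gene and coloured from -2 (blue) to 2 (red), with values beyond that range in the end colours. The upper 4 genes and Il4ra are mostly red in the 20 tumour-bearing and blue in the 9 tumour-free hearts, while Tnfrsf12a varies within each group and Il13ra1 and Ifngr1 stay pale.

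Markers of immune cells, in which the beta chains are mainly expressed, did not all move alike. The 14 macrophage and monocyte markers summed to 449.6 to 608.7 CPM in C26_REVERBa hearts (median 568.3), 494.2 to 818.6 CPM in C26_GFP hearts (median 624.6), 340.6 to 480.9 CPM in PBS_REVERBa hearts (median 379) and 421.9 to 525.9 CPM in PBS_GFP hearts (median 464.7). Of these markers 6 were higher and none lower in C26_GFP against PBS_GFP hearts (C1qa, C1qb, C1qc, Cd163, Mrc1 and Ly6c2), where 14.2% of all tested genes were higher. In C26_REVERBa against PBS_REVERBa hearts 5 were higher (C1qa, C1qb, C1qc, Cd163 and Mrc1) and none lower, where 4.05% of all tested genes were higher. C1qa, C1qb and Cd14 were lower in C26_REVERBa than in C26_GFP hearts, where 3.45% of all tested genes were lower. The 10 neutrophil markers summed to 3.07 to 15.7 CPM in C26_REVERBa hearts, 3.82 to 13.4 CPM in C26_GFP hearts, 2.92 to 5.51 CPM in PBS_REVERBa hearts and 2.36 to 6.03 CPM in PBS_GFP hearts. Ly6g, the defining neutrophil marker, was at 0 in all tumour-free hearts. Of the 3 neutrophil markers tested, Mmp9 alone passed in C26_GFP against PBS_GFP hearts, where 14.2% of all tested genes were higher. S100a9 alone passed in C26_REVERBa against PBS_REVERBa hearts, where 4.05% were higher. Both were higher. At such low levels a marker may have passed the filter on low counts through the tumour-bearing hearts, which was not checked. These calls are a description. The 8 mast cell and eosinophil markers summed to 8.09 to 15.5 CPM in C26_REVERBa hearts, 4.4 to 8.22 CPM in C26_GFP hearts, 17.2 to 24.2 CPM in PBS_REVERBa hearts and 15.7 to 24.4 CPM in PBS_GFP hearts, with the eosinophil gene Epx at 0 throughout. Of the 3 tested, Kit alone passed. It was lower in C26_GFP against PBS_GFP and in C26_REVERBa against PBS_REVERBa hearts, where 14.0% and 3.19% of all tested genes were lower. Kit was higher in C26_REVERBa than in C26_GFP hearts, where 3.75% of all tested genes were higher. The 8 lymphocyte markers summed to 2.37 to 12.3 CPM in C26_REVERBa hearts (median 3.71), 2.21 to 15.5 CPM in C26_GFP hearts (median 3.94), 2.9 to 4.98 CPM in PBS_REVERBa hearts (median 3.5) and 3.44 to 5.49 CPM in PBS_GFP hearts (median 4.42). Cd3e, the 1 marker of these that was tested, was higher in C26_GFP against PBS_GFP hearts with a log2 change of 1.97, where 14.2% of all tested genes were higher. The median sum of the 8 was not higher in C26_GFP hearts. At so low a level Cd3e may have passed the filter on low counts through the hearts where it was high, which was not checked. Its change is a description. The 8 fibroblast markers summed to a median of 1276.5 CPM in C26_REVERBa hearts, 1441.5 CPM in C26_GFP hearts, 1089.4 CPM in PBS_REVERBa hearts and 1051.1 CPM in PBS_GFP hearts. Of them 3 were higher and 1 lower in C26_GFP against PBS_GFP hearts, with a median log2 change of 0.03. Among all tested genes 14.2% were higher and 14.0% lower in that comparison. In C26_REVERBa against PBS_REVERBa hearts 1 was higher and 1 lower, with a median of -0.13, against 4.05% and 3.19% of all tested genes. The 8 cardiomyocyte markers summed to a median of 56660 CPM in C26_REVERBa hearts, 48742 CPM in C26_GFP hearts, 55385 CPM in PBS_REVERBa hearts and 55868 CPM in PBS_GFP hearts. Of them 1 was higher and 5 were lower in C26_GFP against PBS_GFP hearts, with a median log2 change of -0.29. Over all tested genes 14.2% were higher and 14.0% lower there. In C26_REVERBa against PBS_REVERBa hearts none was higher and Actc1 alone was lower, with a median of -0.04, where 3.19% of all tested genes were lower. The part of these markers in the receptor differences was not tested.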

How the data were processed

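RNA from 29 mouse hearts was sequenced as 50 bp paired-end reads from a stranded kit without selection of polyadenylated RNA, per the labels' protocols. The authors deposited raw counts per RefSeq gene, and 1 per-sample column that matched no label was not used. Per the submitters' processing notes, STAR 2.4.2a, DESeq2 1.24.0 and build mm10 were used, in roles that are not stated. The sources used here give neither the counting tool nor its strand setting. Starts were raised by 1, since 10878 of 19392 matched symbols then had the RefSeq start and 688 as given.

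Groups came from the labels, and each library has its own animal number. The receptor genes, gene lists, tests and alternatives were chosen with earlier results of these data known. The main analysis used edgeR 4.0.16 in R 4.3.3. Of 20411 genes, 12928 passed filterByExpr (minimum count 10, minimum total 15). With TMM scaling, a single quasi-likelihood fit with 4 group means covered all 29 libraries and had no covariate. Calls are Benjamini-Hochberg adjusted p-values under 0.05 over all tested genes. The standard error is the size of the log2 change divided by the square root of F. CPM values use the same factors, and levels per kb divide by the counted length in the deposited table. The procedure was tested on simulated data. All 406 pairs of libraries differed by more than sampling noise (chi-square over its degrees of freedom at least 2.62).

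Named genes were the 8 receptor genes, the 5 genes most like Csf2rb2 and the 2 most like each other receptor gene (mean of at least 1 CPM), up to 4 genes per list with the smallest p for the tumour effect with GFP or the vector effect with a tumour, all ligands by their counts, and Nr1d1. Cish, Ripk1, Birc3, Gbp3 and Bcl2l1 were named after their values were seen. Alternatives were RLE and upper quartile scaling, DESeq2 1.42.0, limma 3.58.1 voom with sample weights, a replicate block, no filter or 1 CPM in 10 libraries as the filter, the compared groups fitted alone, a robust fit, an adjusted p under 0.1, leaving out libraries above 10000000 counts or with high atrial markers, the atrial level as a covariate, thinning to the smallest total, and leaving out each library in turn.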

Additional observations from a re-analysis of the deposited data

Results flagged for a closer look

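Csf2rb2 in C26_GFP replicate 9 stood at 16.4 CPM, apart from the next highest of the 10 C26_GFP hearts at 11.3 CPM and the lowest at 7.29 CPM. This library also had the highest atrial marker level of all 29, a mean of 7.07 log2 CPM, and without it the C26_GFP minus PBS_GFP change was 2.11 (edgeR adjusted p = 1.38e-05). Tnfrsf1a in PBS_REVERBa replicate 5 stood at 46.1 CPM, below the other 4 PBS_REVERBa hearts, which lay between 54.2 and 57.4 CPM. These were 2 of 32 sets of 1 gene in 1 group, and chance sets a heart apart in this way in about 1 of 20 sets.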

How the results depend on the processing

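The 10 calls for the tumour, 5 with each vector, held under all 14 alternative settings and on leaving out any library in turn. Among these settings, an adjusted p under 0.1 used the same fit and could not lose a call. For C26_REVERBa minus C26_GFP the count of 2 genes became 1 with upper quartile scaling, no filter on low counts, the robust fit, removal of high-atrial libraries and thinning, 0 with the replicate block and the fit of the compared groups alone, 4 with limma voom, 3 at an adjusted p under 0.1 and without libraries above 10000000 counts, and 0 to 3 on leaving out each library. With the atrial covariate it was again 2, but Tnfrsf12a was lost (edgeR adjusted p = 0.0567) and Tnfrsf1a gained (edgeR adjusted p = 0.048). Over all tested genes that comparison had 931 calls, against 291 with the replicate block, 327 with the compared groups alone, 620 after thinning, 1709 at an adjusted p under 0.1, 1772 with limma voom and 295 to 1778 without single libraries. For C26_REVERBa minus PBS_REVERBa 935 calls compared with 450 with the block, 525 without high-atrial libraries, 1593 at an adjusted p under 0.1 and 476 to 1201 without single libraries, and for C26_GFP minus PBS_GFP 3642 compared with 1972 without libraries above 10000000 counts. For PBS_REVERBa minus PBS_GFP 0 calls became 1 with limma voom and with the compared groups alone, and for the interaction 15 with DESeq2 and 4 with limma voom. Signs turned only for changes that were not called. Csf2rb in PBS_REVERBa minus PBS_GFP became 0.02 with limma voom, 0.06 without libraries above 10000000 counts, 0.04 without high-atrial libraries, 0.01 with the atrial covariate and -0.21 to 0.22 without single libraries. Ifngr1 in C26_GFP minus PBS_GFP became 0.09 without libraries above 10000000 counts, 0.04 after thinning and -0.05 to 0.02 without single libraries. Without high-atrial libraries, Il1r1 and Tnfrsf12a in PBS_REVERBa minus PBS_GFP became 0.03 and 0.06, and the Csf2rb2 interaction -0.01. Without single libraries, Il1r1, Tnfrsf12a, Tnfrsf1a and Ifngr1 in PBS_REVERBa minus PBS_GFP ranged over -0.11 to 0.04, -0.32 to 0.04, -0.06 to 0.10 and -0.09 to 0. The Csf2rb2 and Ifngr1 interactions ranged over -0.12 to 0.62 and -0.07 to 0.02, and Ifngr1 and Il13ra1 in C26_REVERBa minus PBS_REVERBa over -0.09 to 0.01 and 0 to 0.13. The cause was not tested. Replicate numbers did not pair the hearts: over 32 same-numbered pairs the correlation of deviations from the group means ran from -0.346 to 0.284 (median -0.0235), and the block left the 10 tumour calls in place. With it, adjusted p was 0.0819 for Tnfrsf12a and 0.0757 for Il4ra in C26_REVERBa minus C26_GFP (edgeR). Low tumour-free counts of Csf2rb2 limit its folds and shares.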
